A study of Mus musculus with 6 samples.

Results

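RNA of 34 genes of the p53 and DNA damage response, chosen by name out of 43629 genes in the deposited tables, was measured in cultured mouse skin fibroblasts. They fall into p53 itself with its inhibitors (3 genes), arrest and stress targets (12), cell death targets (11), repair targets (4) and kinases of the damage response (4). All 34 passed the filter on low counts and are among the 15341 genes tested. Cells of both groups were primary dermal fibroblasts of newborn mice at passage 1, grown for 6 days, from a mixed strain (50% C57Bl/6, 50% FVB/N). Mice of both groups carried Col1a2Cre, a Cre recombinase active in fibroblasts. The ctrl group had Cre alone (3 libraries). The caNrf2 group had Cre with caNrf2, a mutant of the transcription factor Nrf2 that is always active (3 libraries). The design text gives 3 mice per group, and the labels do not tie a library to a mouse, so p-values measure the spread between these libraries.

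The transcription factor p53 is kept low in unstressed cells by MDM2, which marks it for degradation, and by MDM4, which binds and silences it. After DNA damage the kinases ATM and ATR, with CHK2 and CHK1, release p53 from these inhibitors, and p53 then switches on genes for arrest, repair and cell death, together with Mdm2 itself. In fibroblasts the pathway is best known for its part in lasting arrest and senescence. Much of its control acts on protein stability and phosphorylation, which RNA counts do not measure.

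Library totals were 30168400 to 45164208 expected counts. Nfe2l2, which encodes Nrf2, stood at 113, 103 and 112 CPM (counts scaled to library size) in ctrl replicates 1 to 3 and at 352, 429.9 and 358 CPM in caNrf2 replicates 1 to 3 (3.48-fold). All 10 listed NRF2 targets were called higher. Of 10 fibroblast markers, 5 were lower, led by the collagen genes Col1a2, Col3a1 and Col1a1, and 2 were higher, Pdgfra (1.33-fold) and Thy1 (1.32-fold). Their sum, which is mostly collagen, was 37513 to 53709 CPM in ctrl and 27814 to 32906 CPM in caNrf2. Markers of macrophages and leukocytes were at a low level but higher in caNrf2, 11 of 12 called, with sums of 22.5 to 62.4 CPM in ctrl and 148 to 175 CPM in caNrf2 and no marker at 0 in any library. Skeletal muscle markers were also higher, 8 of 11 tested (132 to 145 against 191 to 254 CPM in sum), and Pax7 was at 0 in some libraries. In bulk RNA, fewer cells of a type and less RNA per cell cannot be told apart, and the part of these cells in the results below was not tested.

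Of the 34 genes, 6 were higher in caNrf2 (Mdm2, Gadd45b, Gadd45g, Plk2, Tnfrsf10b and Aen) and 3 were lower (Mdm4, Sesn1 and Apaf1). A gene is said to be called, higher or lower, when edgeR's quasi-likelihood test gave an adjusted p under 0.05 over all genes tested. The 9 called genes are 26.5% of the list, against 21.5% of all genes tested, and higher calls were 12.5% and lower calls 9.03% of all genes. In this fit the share of called genes in the list was therefore near that of the transcriptome. The groups did not overlap in 18 of the 34 genes (52.9%), against 42.1% of all genes, and 16 (47.1%) had an unadjusted p under 0.05, against 35.2% of all genes. The median log2 fold change of the list was 0.019, and that of all genes was -0.003. No member changed by 2-fold or more, while 8.13% of all genes did. Upper-quartile scaling gave 3 higher and 4 lower members, beside 1744 higher and 1750 lower over all genes. Scaling by total counts gave 5 and 4 members, beside 1844 and 1487 over all genes. DESeq2 called 9 members higher and 4 lower, beside 2057 higher and 1570 lower over all genes. Over the transcriptome there were 1385 lower calls, but 823 when ctrl replicate 3 was left out and 864 when caNrf2 replicate 2 was.

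**Figure D1:**
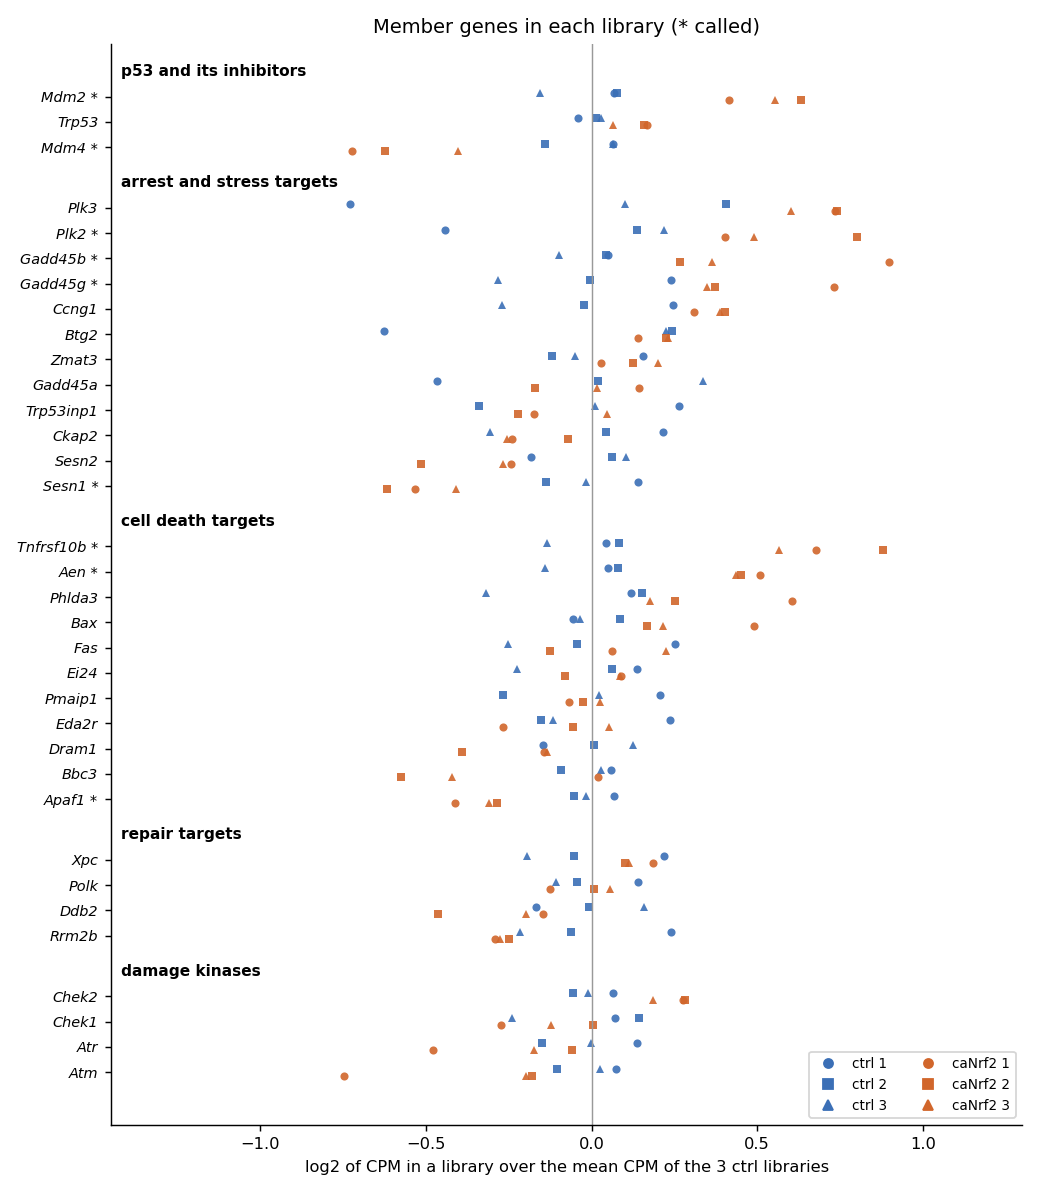
Level of each of the 34 genes in each library, as log2 of its CPM over the mean of the 3 ctrl libraries, by role. Blue is ctrl and orange caNrf2, with circles, squares and triangles for replicates 1, 2 and 3 and an asterisk for called genes; orange points lie to the right for Mdm2, Tnfrsf10b and Aen and to the left for Mdm4, Sesn1 and Apaf1.

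The 2 inhibitors of p53 moved in opposite directions, while Trp53 itself was not called. Mdm2, the ubiquitin ligase that is both an inhibitor and a target of p53, stood at 131, 132 and 113 CPM in ctrl replicates 1 to 3 and at 167, 194 and 184 CPM in caNrf2 replicates 1 to 3. Every caNrf2 library lay above every ctrl library, a 1.45-fold rise (log2 fold change 0.54, SE 0.10, edgeR adjusted p = 0.00465). Mdm4, the relative of Mdm2 that holds p53 inactive, stood at 158, 137 and 158 CPM in the ctrl libraries and at 91.4, 97.9 and 114 CPM in those of caNrf2. Here every caNrf2 library lay below every ctrl library, at 0.671-fold (log2 fold change -0.58, SE 0.10, adjusted p = 0.00497). Both calls held in all 16 alternatives.

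The ratio of Mdm2 to Mdm4 counts in each library joins the pair. It was 0.83, 0.964 and 0.712 in ctrl and 1.83, 1.98 and 1.61 in caNrf2, so that Mdm4 counts exceeded Mdm2 counts in every ctrl library and fell short of them in every caNrf2 library. The log2 ratio differed by 1.12. An exact permutation over the 20 regroupings of the libraries gave p = 0.1, the smallest value it can give. That outcome was fixed beforehand, because the groups were already apart in opposite directions for the 2 genes. The permutation therefore adds no support, and the ratio is a description only. This ratio of counts is not corrected for transcript length, so its distance from 1 has no meaning of its own. Trp53 stood at 119, 124 and 125 CPM in the ctrl libraries and at 138, 137 and 128 CPM in those of caNrf2. Its groups did not overlap, but the difference was small (1.1-fold, log2 fold change 0.13, SE 0.07, adjusted p = 0.227) and was called in none of the 16 alternatives.

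**Figure D2:**
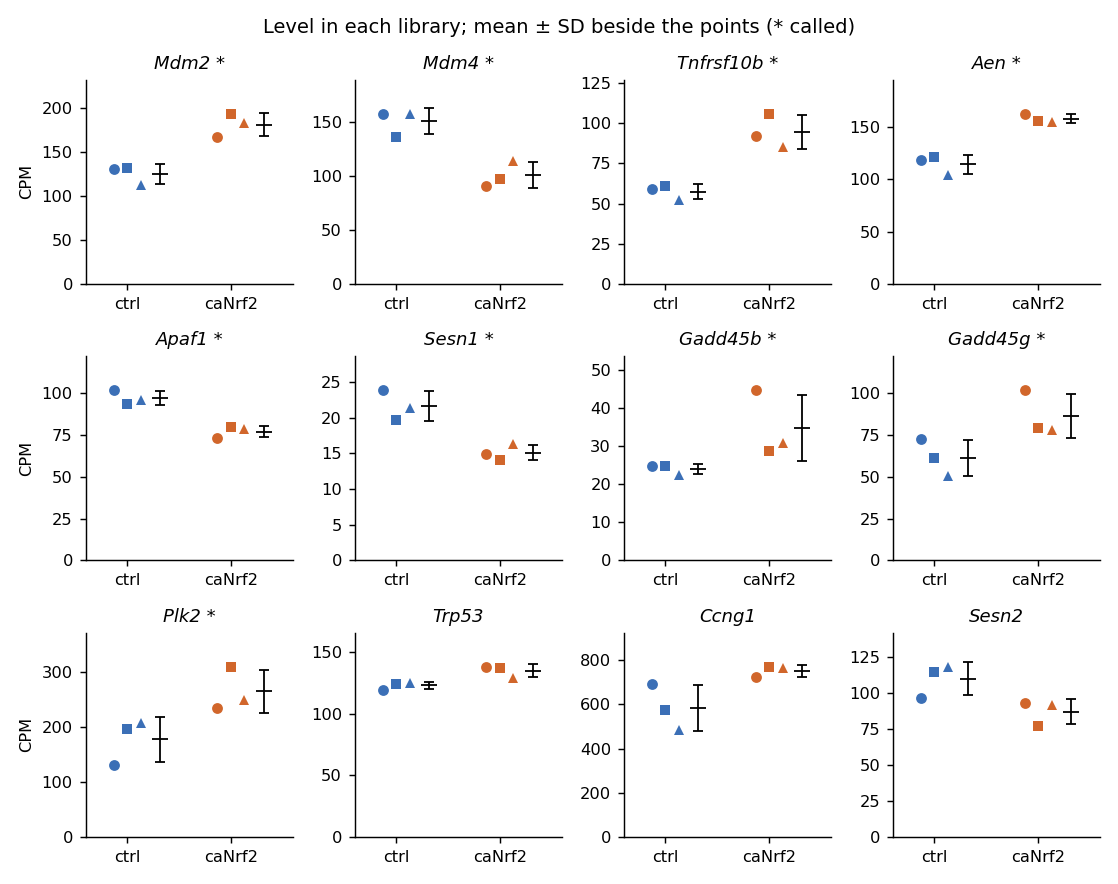
CPM of the 9 called genes (asterisk) and of Trp53, Ccng1 and Sesn2 in each library, with axes from 0. Circles, squares and triangles are replicates 1, 2 and 3, and bars give mean ± SD of 3 libraries; the groups are apart in all 12 panels, with the widest spread within a group, relative to its mean, for Gadd45b in caNrf2.

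Promoter sequences of this pair are shown because its members moved apart. They are the 250 bases before a RefSeq start of each gene (GRCm38.p6, minus strand, printed 5′ to 3′ on the gene's strand), at chr10:117710759-117711008 for Mdm2 and chr1:133025417-133025666 for Mdm4. RefSeq gives Mdm4 a second, upstream start, whose window (chr1:133030538-133030837) is not printed and holds no match either. Capitals mark a match to a single 10-base p53 motif (3 purines, C, A or T, A or T, G, 3 pyrimidines). A full p53 element is a pair of such motifs, and pairs were not searched for.
Mdm2: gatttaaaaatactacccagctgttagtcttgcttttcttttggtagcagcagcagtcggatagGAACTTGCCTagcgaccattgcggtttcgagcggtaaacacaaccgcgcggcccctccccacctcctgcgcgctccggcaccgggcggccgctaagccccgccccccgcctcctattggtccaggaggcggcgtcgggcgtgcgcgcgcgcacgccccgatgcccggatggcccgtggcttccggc
Mdm4: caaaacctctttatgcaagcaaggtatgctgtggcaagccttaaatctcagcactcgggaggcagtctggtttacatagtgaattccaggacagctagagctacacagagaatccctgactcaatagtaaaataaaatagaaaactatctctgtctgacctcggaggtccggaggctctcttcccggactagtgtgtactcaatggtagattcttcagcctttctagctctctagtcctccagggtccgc
The Mdm2 stretch holds 1 match and is 65.6% G or C, and the Mdm4 stretch holds none and is 47.2% G or C. The best known p53 elements of Mdm2 lie in its first intron, outside this window.

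Across the list, 27 genes had RefSeq promoter windows of 300 bases (250 before to 50 after the start; 33 windows). The single 10-base p53 motif, which reads the same on both strands, was found in 10 of the 27 genes (37%), against 9.55% of 27025 genes with a window. By window the shares were 33.3% and 8.36%. The matches are printed with 10 bases on each side, to show how they differ between members.
Mdm2: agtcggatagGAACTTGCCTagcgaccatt
Trp53: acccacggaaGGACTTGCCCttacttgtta
Ccng1: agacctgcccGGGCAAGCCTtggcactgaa
Gadd45a: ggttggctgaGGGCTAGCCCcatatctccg
Sesn1: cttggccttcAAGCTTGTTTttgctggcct
Ckap2: ctgtgtctgaAGACATGTCCtgacttgtca
Bax: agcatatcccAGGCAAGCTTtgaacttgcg
Aen: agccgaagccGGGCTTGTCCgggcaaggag
Ei24: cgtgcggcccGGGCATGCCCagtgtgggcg
Polk: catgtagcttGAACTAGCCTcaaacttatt
Of these 10 genes, Mdm2 and Aen were higher, Sesn1 was lower and 7 were not called, so genes with a match were found in each class. The stretches lie at chr10:117710925-117710954 (Mdm2), chr11:69580274-69580303 (Trp53), chr11:40755452-40755481 (Ccng1), chr6:67037428-67037457 (Gadd45a), chr10:41887256-41887285 (Sesn1), chr8:22186003-22186032 (Ckap2), chr7:45467080-45467109 (Bax), chr7:78895927-78895956 (Aen), chr9:36797325-36797354 (Ei24) and chr13:96519399-96519428 (Polk). Those of Trp53, Sesn1 and Aen are on the plus strand of GRCm38.p6 and the others on the minus strand. The Aen match lies 11 bases after 1 start of the gene and 121 bases before another.

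The core of the antioxidant response element, the motif of NRF2 (TGACNNNGC, searched on both strands), was found in 4 of the 27 genes (14.8%), against 14% of all 27025. Its share in the list was thus that of promoters at large. The matches are printed with 10 bases on each side.
Gadd45g: cagatttgagGCTGTGTCAtcccccgcac
Sesn2: cgcagcgggcTGACAGAGCcgggcgagcg
Trp53: gggagaatccTGACTCTGCaagtccccgc
Eda2r: gccagacttgTGACTTGGCcggtgtttac
Only Gadd45g of these 4 was called, and it was higher. The stretches lie at chr13:51846497-51846525 on the plus strand (Gadd45g), chr4:132510474-132510502 on the minus strand (Sesn2), chr11:69580227-69580255 on the plus strand (Trp53) and chrX:97377328-97377356 on the minus strand (Eda2r). The 2 motifs did not overlap in any member. A match describes the letters of the window and is not a measured site.

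Arrest and stress targets were mixed, with 3 of 12 higher (Gadd45b, Gadd45g and Plk2) and 1 lower (Sesn1). These 12 genes had 33.3% called, against 21.5% of all genes tested. Their median log2 fold change was 0.16. The GADD45 proteins are small stress-inducible partners of PCNA and of stress kinases, and Gadd45a is the family member most closely tied to p53. Gadd45a had nearly equal means, a ctrl mean of 23.4 ± 6.29 and a caNrf2 mean of 23.4 ± 2.52 CPM (SD, n = 3 each; log2 fold change 0.0032, SE 0.18, edgeR adjusted p = 0.993). Part of its exons, 19.1% of their bases, also belong to a gene on the opposite strand, so its counts are less certain. That other gene was at a low level, with means of 1.04 CPM in ctrl and 1.06 CPM in caNrf2.

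The other 2 GADD45 genes rose. Gadd45b stood at 24.8, 24.7 and 22.4 CPM in the ctrl libraries and at 44.7, 28.8 and 30.8 CPM in those of caNrf2, with caNrf2 replicate 1 far above the other two. Its rise was 1.45-fold (log2 fold change 0.53, SE 0.16, edgeR adjusted p = 0.0399). Gadd45g stood at 72.3, 61.1 and 50.4 CPM in the ctrl libraries and at 102, 79.4 and 78.0 CPM in those of caNrf2, a 1.41-fold rise (0.49, SE 0.15, adjusted p = 0.0415). The groups were apart for both genes, but both calls were near the threshold. The call of Gadd45b was lost with upper-quartile scaling (adjusted p = 0.0544), with limma-voom (0.0535) and on leaving out ctrl replicate 1 (log2 fold change 0.55), 2 (0.56) or 3 (0.49). Without caNrf2 replicate 1 its log2 fold change was 0.31 (adjusted p = 0.0417). That of Gadd45g was lost with upper-quartile scaling (adjusted p = 0.0579), with total counts (0.0519) and on leaving out ctrl replicate 2 (0.49) or 3 (0.37), or caNrf2 replicate 1 (0.36), 2 (0.55) or 3 (0.56).

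The polo-like kinases Plk2 and Plk3 are quickly induced by stress and by growth factors. Plk2 stood at 131, 195 and 207 CPM in the ctrl libraries and at 235, 309.7 and 249 CPM in those of caNrf2, a 1.49-fold rise (log2 fold change 0.57, SE 0.18, edgeR adjusted p = 0.0475). Plk3 stood at 14.4, 31.6 and 25.6 CPM in the ctrl libraries and at 39.7, 39.8 and 36.2 CPM in those of caNrf2 (log2 fold change 0.69, SE 0.23, adjusted p = 0.0639). Ctrl replicate 1 was the lowest library for both. The call of Plk2 was lost with upper-quartile scaling (log2 fold change 0.54) and on leaving out ctrl replicate 1 (0.38) or 2 (0.65), or caNrf2 replicate 1 (0.65), 2 (0.44) or 3 (0.61). Plk3 gained a call without ctrl replicate 1 (0.42) or 2 (0.95), and 6 of its 16 alternatives called it.

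Btg2, an antiproliferative gene of the early response, also had its lowest value in ctrl replicate 1 (95.4 CPM, against 162 to 174 CPM in the other 5 libraries) and was not called (log2 fold change 0.20, edgeR adjusted p = 0.514, and -0.047 without that library). A list of 15 immediate early genes was summed beside these kinases and Btg2. It came to 901 CPM in ctrl replicate 1, 1677 and 1676 CPM in the other 2 ctrl libraries and 1853 to 2019 CPM in caNrf2. Of the 15 genes, 4 were called higher (Dusp1 with the smallest adjusted p) and 0 lower, against 12.5% higher and 9.03% lower of all genes tested. The part of this early response in the values of Gadd45b, Plk2, Plk3 and Btg2 was not tested.

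The sestrins, both p53 targets that restrain the growth kinase complex mTORC1, were below ctrl in every caNrf2 library, and 1 of the 2 was called. Sesn1 stood at 23.8, 19.7 and 21.4 CPM in the ctrl libraries and at 14.9, 14.1 and 16.3 CPM in those of caNrf2, and the groups were apart. It fell to 0.699-fold (log2 fold change -0.52, SE 0.10, edgeR adjusted p = 0.0071), a call that held in all 16 alternatives. Sesn2, also known as a target of NRF2 and ATF4, stood at 96.9, 115 and 118 CPM in the ctrl libraries and at 92.9, 77.0 and 91.4 CPM in those of caNrf2. Its groups were apart by a narrow margin, and it missed the threshold (0.792-fold, log2 fold change -0.34, SE 0.11, adjusted p = 0.0514). It was called lower in 6 of its 16 alternatives, among them the fit without ctrl replicate 1 (-0.43).

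Sesn1 has 2 starts, and transcripts from both had lower TPM in every caNrf2 library than in any ctrl library. The transcript from the upstream start (ENSMUST00000099931) stood at 6.17, 5.67 and 6.00 TPM in ctrl and at 3.11, 2.85 and 3.72 TPM in caNrf2. The transcript from the downstream start (ENSMUST00000041438) stood at 9.91, 7.57 and 8.46 TPM in ctrl and at 6.15, 6.82 and 7.28 TPM in caNrf2. The upstream transcript held 40.9% ± 2.29 of the gene's TPM in ctrl and 32.3% ± 2.44 in caNrf2 (SD, n = 3 each), a shift in usage that was not called (edgeR diffSpliceDGE adjusted p = 1.00 after rounding). The 10-base p53 motif match of the gene lies before the downstream start, and the 250 bases before it (chr10:41887189-41887438, plus strand) are shown for that reason, with the match in capitals.
Sesn1: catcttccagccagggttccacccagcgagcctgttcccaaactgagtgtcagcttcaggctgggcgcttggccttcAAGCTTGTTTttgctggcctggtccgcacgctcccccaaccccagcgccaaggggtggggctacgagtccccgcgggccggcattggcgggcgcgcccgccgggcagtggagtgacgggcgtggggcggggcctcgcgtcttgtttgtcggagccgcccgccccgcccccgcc

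Ccng1, which encodes cyclin G1, a p53 target that acts back on MDM2, and is among the members of highest level, stood at 691, 574 and 484 CPM in the ctrl libraries and at 723, 771 and 763 CPM in those of caNrf2. The groups were apart, but the ctrl libraries spread widely, and the gene missed the threshold (1.29-fold, log2 fold change 0.37, SE 0.13, edgeR adjusted p = 0.0709). It was called higher in 3 of its 16 alternatives, DESeq2, no filter and the fit without ctrl replicate 1 (0.50). Zmat3, an RNA-binding target of p53 (log2 fold change 0.12), Trp53inp1, a stress protein with a part in autophagy (-0.11), and the microtubule-associated gene Ckap2 (-0.19) had overlapping groups and were not called (adjusted p 0.326 to 0.63).

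Cell death targets were also mixed, with 2 of 11 higher and 1 lower, and a median log2 fold change of 0.034. The called share was 27.3%, against 21.5% of all genes tested. Among death receptors, Tnfrsf10b, the mouse receptor for TRAIL, had the smallest adjusted p of the whole list. It stood at 59.3, 60.9 and 52.4 CPM in the ctrl libraries and at 92.0, 106 and 85.2 CPM in those of caNrf2, well apart, a 1.64-fold rise (log2 fold change 0.71, SE 0.10, edgeR adjusted p = 0.00128) that was called in all 16 alternatives. Fas, the receptor for FAS ligand, had overlapping groups, with means of 14.5 ± 2.57 CPM (ctrl) and 15.1 ± 1.82 CPM (caNrf2) (SD, n = 3 each; log2 fold change 0.060, SE 0.14, adjusted p = 0.798). Eda2r, the receptor for ectodysplasin A2, also overlapped (-0.084, SE 0.12, adjusted p = 0.66).

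In the mitochondrial pathway, the scaffold of the apoptosome was lower and the pore-forming and trigger genes were not called. Apaf1, which encodes that scaffold, stood at 101, 93.3 and 95.6 CPM in the ctrl libraries and at 72.8, 79.4 and 78.1 CPM in those of caNrf2, with the groups apart. It fell to 0.793-fold (log2 fold change -0.33, SE 0.07, edgeR adjusted p = 0.0118), a call kept in all 16 alternatives. Bax, the pore-forming protein, was above ctrl in every caNrf2 library (125 ± 6.61 and 154 ± 19.0 CPM, SD, n = 3 each) but missed the threshold (0.30, SE 0.10, adjusted p = 0.0662), and DESeq2 alone of the 16 alternatives called it. The trigger genes Bbc3 (PUMA) and Pmaip1 (NOXA) overlapped between groups. Bbc3 had a log2 fold change of -0.31 (SE 0.15, adjusted p = 0.176) and was called lower without caNrf2 replicate 1 (-0.50), and Pmaip1 had one of -0.020 (SE 0.12, adjusted p = 0.921).

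Of the remaining death and survival targets, Aen rose. Aen encodes a nuclease of apoptosis and stood at 118, 121 and 103 CPM in the ctrl libraries and at 162, 156 and 154 CPM in those of caNrf2. The groups were well apart (1.38-fold, log2 fold change 0.46, SE 0.08, edgeR adjusted p = 0.00483), and all 16 alternatives called it. Phlda3, a membrane-binding inhibitor of the kinase AKT, stood at 91.3, 93.4 and 67.5 CPM in the ctrl libraries and at 128, 100.1 and 94.9 CPM in those of caNrf2. Its groups were separated only narrowly (log2 fold change 0.36, SE 0.15, adjusted p = 0.127). The autophagy genes Ei24 (0.034, adjusted p = 0.844) and Dram1 (-0.22, adjusted p = 0.153) overlapped between groups.

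None of the 4 repair targets was called by edgeR, DESeq2 or limma-voom, and 0 had an unadjusted p under 0.05 in edgeR. Over all genes tested, edgeR called 21.5%, and 35.2% had an unadjusted p under 0.05. With 4 genes, the counts cannot be set apart from these shares. Rrm2b, the p53-induced subunit of ribonucleotide reductase, was below ctrl in every caNrf2 library (15.1 ± 2.48 and 12.5 ± 0.191 CPM, SD, n = 3 each; log2 fold change -0.27, SE 0.12, edgeR adjusted p = 0.146). Ddb2, which finds ultraviolet lesions, had a log2 fold change of -0.26 (SE 0.15, adjusted p = 0.254) at 5.10 ± 0.573 CPM in ctrl. It shares 23.8% of its exon bases with Acp2 on the opposite strand, so its counts are less certain. Acp2 was at a far higher level than Ddb2, with means of 61.85 CPM in ctrl and 57.65 CPM in caNrf2. Xpc, which finds distorted DNA (0.13, SE 0.11, adjusted p = 0.446), and Polk, a polymerase that copies past lesions (-0.019, SE 0.09, adjusted p = 0.9), had overlapping groups.

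Of the 4 damage kinases, 0 were called by edgeR, DESeq2 or limma-voom, while 2 (Atm and Chek2) had an unadjusted p under 0.05 in edgeR. The shares of all genes tested were 21.5% called and 35.2% with an unadjusted p under 0.05. Counts out of 4 genes cannot be set apart from them. Atm, the kinase for double-strand breaks, stood at 54.3, 48.0 and 52.6 CPM in the ctrl libraries and at 30.7, 45.5 and 45.1 CPM in those of caNrf2. The groups did not overlap, and caNrf2 replicate 1 was far below the other libraries (log2 fold change -0.35, SE 0.14, edgeR adjusted p = 0.115). Without that library the log2 fold change was -0.19. In TPM the groups overlapped, with caNrf2 replicate 1 at 9.85 and ctrl replicate 2 at 9.59. The longest Atm transcript, ENSMUST00000118282, held 50.8% of the gene's TPM in caNrf2 replicate 1 and 78.8% to 92.6% in the other libraries. Atr, the kinase for stalled replication, was also lowest in caNrf2 replicate 1 (29.1 CPM, against 35.9 to 44.5 CPM in the other 5 libraries; log2 fold change -0.22, adjusted p = 0.215). Of the kinases downstream, Chek2 was slightly above ctrl in every caNrf2 library (9.38 ± 0.4 and 11.1 ± 0.419 CPM, SD, n = 3 each; 0.25, SE 0.10, adjusted p = 0.0992), and Chek1 overlapped (-0.13, SE 0.13, adjusted p = 0.52).

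**Figure D3:**
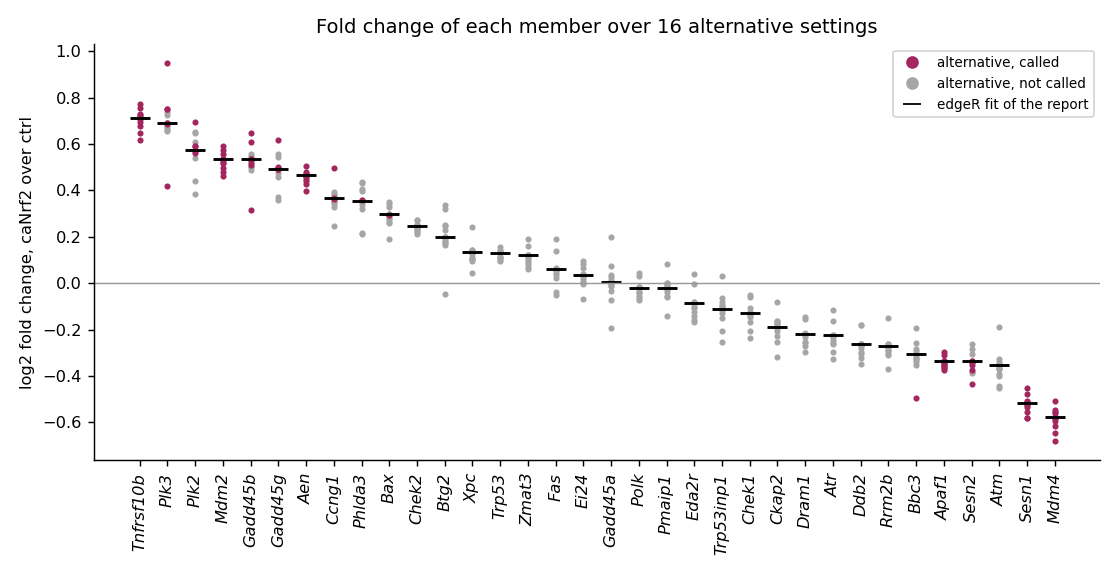
Log2 fold change (caNrf2 over ctrl) of each of the 34 genes in the edgeR fit (black bar) and in 16 alternatives (points; purple where called, grey where not), in order of the fitted value. Mdm2, Mdm4, Tnfrsf10b, Aen, Sesn1 and Apaf1 are purple throughout, while Gadd45b, Gadd45g and Plk2 have grey points.

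Levels between genes can be compared only per length, in TPM (a length-corrected share of all transcripts) summed over a gene's transcripts. In ctrl the highest mean levels belonged to Ccng1 (315 ± 54.7 TPM) and Bax (305 ± 16.8 TPM), which do not differ beyond their spread. Trp53 (133 ± 3.86), Plk2 (121 ± 28.4), Gadd45g (119 ± 20.5), Phlda3 (118 ± 17.8), Mdm2 (105 ± 9.12), Btg2 (103 ± 31.7) and Aen (101 ± 8.11 TPM) followed, close enough that most neighbours overlap within their SD (n = 3 each). Mdm4 was lower than Mdm2 per length in both groups, at 66.3 ± 4.34 against 105 ± 9.12 TPM in ctrl and 39.8 ± 6.87 against 139 ± 17.6 TPM in caNrf2. The lowest levels in ctrl were those of damage kinases and repair genes, Ddb2 (5.02 ± 0.777 TPM), Xpc (7.08 ± 1.18), Chek2 (8.07 ± 0.311), Rrm2b (8.11 ± 1.89), Atr (10.2 ± 0.96) and Atm (11.4 ± 1.59 TPM).

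**Figure D4:**
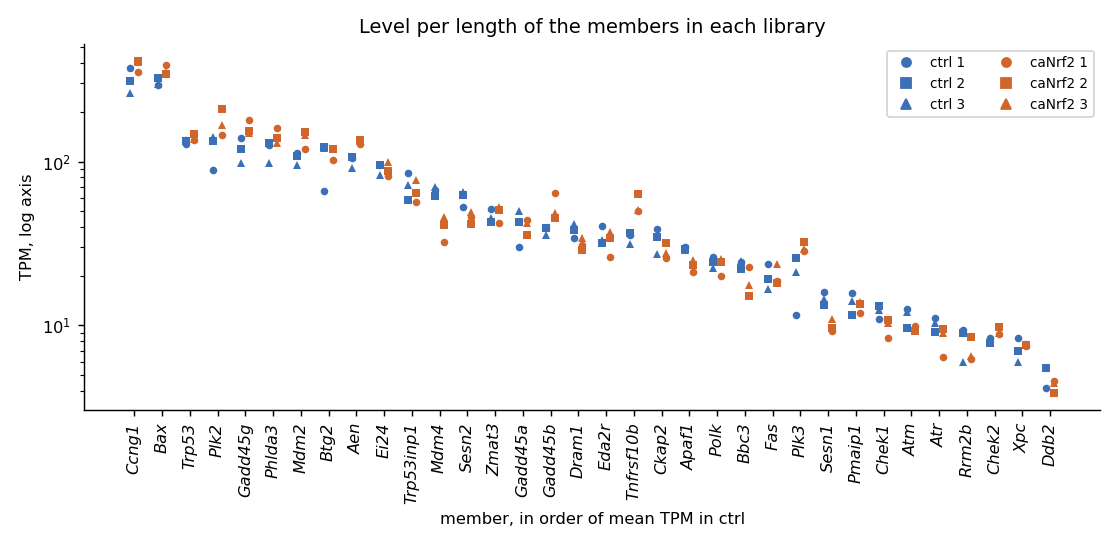
TPM of each of the 34 genes in each library on a log axis, in order of the mean in ctrl (blue ctrl, orange caNrf2, with circles, squares and triangles for replicates 1, 2 and 3). Levels run from 315 TPM for Ccng1 to 5.02 TPM for Ddb2 in ctrl, a wider range than any difference between the groups.

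Transcript usage, the share of a gene's reads that each of its transcripts takes, was tested for the 20 members with at least 2 transcripts above the filter. None was called by edgeR diffSpliceDGE, against 0.801% of 7992 genes tested, and 2 had an unadjusted p under 0.05. The lowest adjusted p was that of Zmat3 (0.289). Its transcript ENSMUST00000168566 took 6.18%, 14.5% and 19.7% of the gene's TPM in ctrl replicates 1 to 3 and 28.8%, 16.6% and 39.2% in caNrf2 replicates 1 to 3, which overlap.

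Other genes of the pathway were read from 8 lists of 144 genes, of which 139 were tested. They had 13 higher and 10 lower calls (16.5%, against 21.5% of all genes tested) and a median log2 fold change of -0.052. Among 22 further p53 targets tested, 7 were higher and 2 lower. The smallest adjusted p-values were those of Abhd4, a lipase gene (2.53-fold, 104 ± 3.94 to 263 ± 8.68 CPM), Ninj1, which ruptures the membrane of dying cells (2.77-fold, 28.4 ± 0.646 to 78.8 ± 14.6 CPM), and Sfn, which encodes 14-3-3 sigma (3.44-fold, 22.8 ± 4.29 to 78.3 ± 17.9 CPM; SD, n = 3 each; edgeR adjusted p at most 0.000208). Sfn is also a keratinocyte gene. Keratinocyte markers, with Sfn among them, had 2 of 10 called higher, with sums of 202 to 335 CPM in ctrl and 326 to 522 CPM in caNrf2, and the part of such cells was not tested. Ptprv (0.672-fold) and Steap3, a ferrireductase gene (0.71-fold), were the 2 that fell. Cdkn1a, which encodes the arrest protein p21, stood at 316, 323 and 283 CPM in the ctrl libraries and at 398, 382 and 400.3 CPM in those of caNrf2 and was higher (adjusted p = 0.0177).

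Of 17 tested modifiers and relatives of p53, 2 were higher and 1 lower, against 12.5% higher and 9.03% lower of all genes tested. Cdkn2a, whose ARF product inhibits MDM2, rose (1.49-fold, edgeR adjusted p = 0.00993). Its counts sum all transcripts of the gene, and those for ARF were not read apart. Pml, the organizer of nuclear bodies, also rose (1.36-fold, adjusted p = 0.0297), and Sirt1, a deacetylase that acts on p53, fell (0.692-fold, adjusted p = 0.00621). Of 19 tested BCL2 family and caspase genes, 2 were higher and 3 lower. The higher ones were the survival genes Bcl2l1 (1.29-fold, adjusted p = 0.0216) and Bcl2 (1.62-fold, adjusted p = 0.0252). The lower ones were Casp8, the initiator caspase of death receptors (0.769-fold, adjusted p = 0.0154), Xiap, an inhibitor of caspases (0.761-fold, adjusted p = 0.0156), and Casp9, the partner of Apaf1 (0.807-fold, adjusted p = 0.0445).

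Genes of damage sensing and repair had few calls, 2 higher and 4 lower of 81 (7.41%, against 21.5% of all genes tested). Of these 81 genes, 56 had negative log2 fold changes, against 7737 of all 15341 genes tested. The median of the 81 genes was -0.098. The lower genes were Nbn, of the complex that binds broken ends (0.769-fold, edgeR adjusted p = 0.0107), Fancf, of the Fanconi core complex (0.6-fold, adjusted p = 0.00637), Brca2, of homologous recombination (0.733-fold, adjusted p = 0.0239), and Neil3, a glycosylase of oxidized bases (0.763-fold, adjusted p = 0.0292). The higher genes were both of nucleotide excision repair, Rad23b (1.25-fold, adjusted p = 0.0188) and Ercc3 (1.19-fold, adjusted p = 0.0459). Of 7 end-joining genes, 0 were called by edgeR, DESeq2 or limma-voom. Among them, 2 had an unadjusted p under 0.05 in edgeR, against 35.2% of all genes tested. Proliferation genes, beside which many repair genes are expressed, had 0 of 16 called by edgeR or limma-voom and 1 by DESeq2. In edgeR, 1 had an unadjusted p under 0.05. Of the 16 genes, 13 had negative log2 fold changes, with a median of -0.037. Their sums overlapped between groups, at 1080 to 1283 CPM in ctrl and 1024 to 1247 CPM in caNrf2. The part of proliferation in the values of the sensing and repair genes was not tested.

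**Figure D5:**
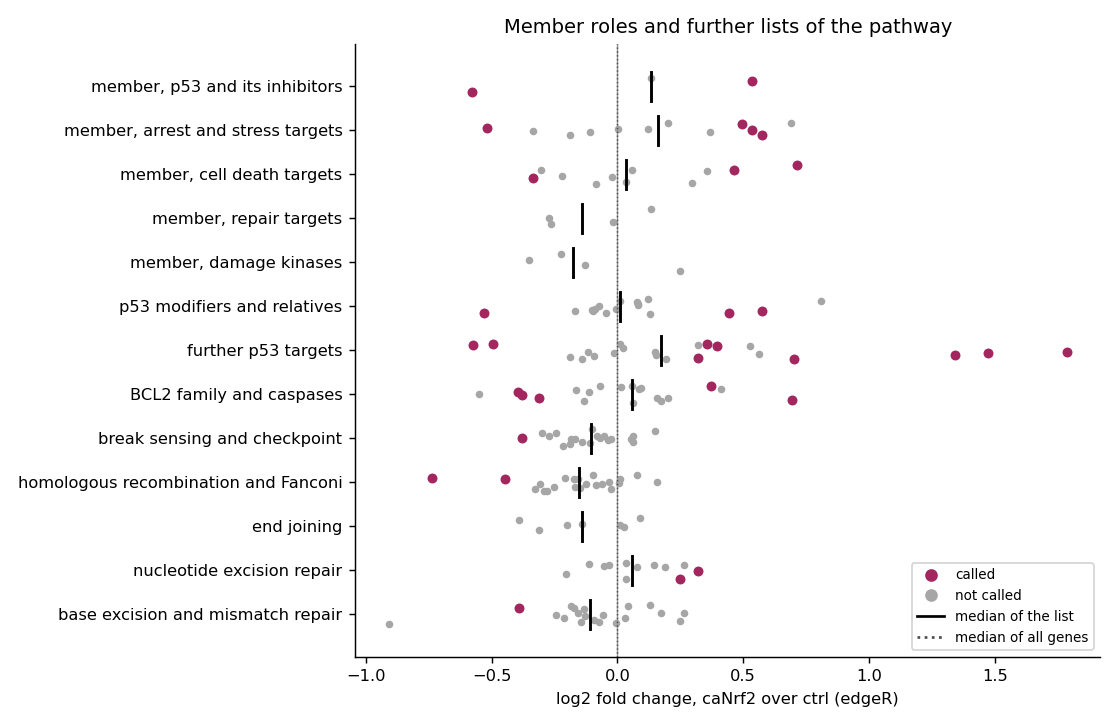
Log2 fold change (caNrf2 over ctrl, edgeR) of each tested gene, by role for the 34 genes and by list for the further genes, with called genes in purple, medians as black bars and the median of all genes dotted. Values past 1 in size that were called occur only among the further p53 targets, and the sensing and repair genes run from -0.91 to 0.32.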

How the data were processed

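Each library has a deposited table of 104129 transcripts from 43629 genes. Software and build named in the submitters' processing notes are RSEM 1.2.21, CASAVA 1.8 and GRCm38, with no roles stated. Aligner, annotation release and strandedness: not given in the sources used here. The columns, per the file headers, hold expected counts (as maximum likelihood and posterior mean) and TPM. For each gene the maximum likelihood values of its transcripts were added up, then rounded. Symbols came from a reference table that named 42462 IDs, including all 34 members. Where genes overlap, reads could not be told apart without a stated strand setting.

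The test of genes was that of edgeR 4.0.16, run in R 4.3.3 (filterByExpr with minimum count 10 and minimum total 15, TMM, two-sided quasi-likelihood test, Benjamini-Hochberg adjustment over all 15341 genes, threshold 0.05). CPM use TMM-scaled library sizes, and standard errors were derived from the F statistic. Transcript usage was tested with diffSpliceDGE on rounded transcript counts. Both tests were checked on simulated data. The simulation for transcript usage held no uncertainty in assigning reads to transcripts, so it does not cover that part of the real counts. DESeq2 1.42.0, limma-voom (limma 3.58.1), other scalings and filters, each library left out and a replicate block were alternatives. The replicate numbers were not taken to pair the libraries.

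The members and lists were chosen with earlier results of these data known. All 34 members are named. Values in every library are given for called members, Trp53, Mdm2 and Ccng1, and members with non-overlapping groups and a log2 fold change of at least 0.3 in size; of further lists, the 3 called genes of smallest adjusted p in each direction and Cdkn1a are named. Promoter sequences are from RefSeq (GRCm38.p6). Of the 34 members, 27 had a window; Zmat3, Trp53inp1, Pmaip1, Tnfrsf10b, Rrm2b, Ddb2 and Xpc did not. Protein sequences were not used here.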

Additional observations from a re-analysis of the deposited data

How the results depend on the processing

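Mdm2, Mdm4, Tnfrsf10b, Aen, Sesn1 and Apaf1 kept their calls and directions in all 16 alternatives. Among the values of single members under the alternatives, 490 kept direction and side of the threshold, 18 lost a call, 18 gained one and 18 changed sign. The cause of these changes was not tested. The count of higher members was 3 with upper-quartile factors and 4 to 6 with a library left out. The count of lower members was 3 to 4 with a library left out. Over all genes, higher calls numbered 1342 to 1755 and lower calls 823 to 1143 with a library left out. Members with shifted transcript usage numbered 0 to 1 with a library left out; the 1 was Dram1, without ctrl replicate 3, chosen after its value was seen. With the replicate number as a block, 8 members were higher and 3 lower, the 9 called members stayed called and Phlda3 (log2 fold change 0.36) and Plk3 (0.75) were gained; 1888 genes were higher and 1330 lower. Same-numbered libraries deviated together with correlations of 0.21, 0.21 and 0.095, and differently numbered ones with -0.24 to 0.11. One same-numbered pair lay under the minimum of 0.1, so the block was not used. Whether same-numbered libraries share a batch was not tested. Signs changed only for members that were not called. For Gadd45a the log2 fold change was -0.032 with upper-quartile factors, -0.011 with total counts and -0.19 to 0.20 with a library left out. For Pmaip1 it was 0.0020 with limma-voom and -0.14 to 0.084 with a library left out, and for Ei24 -0.0026 with upper-quartile factors and -0.068 to 0.097 with a library left out. With a library left out, Btg2 ranged from -0.047 to 0.34, Trp53inp1 from -0.26 to 0.031, Fas from -0.051 to 0.19, Eda2r from -0.17 to 0.038 and Polk from -0.071 to 0.044.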

Other observations

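The division of Trp53 reads between its transcripts depended on which deposited estimate was read. ENSMUST00000005371 and ENSMUST00000108658 have annotated lengths of 1772 and 1771 bases. The maximum likelihood estimate gave the first of them 105, 142 and 86.4 expected counts in ctrl replicates 1 to 3, 152 and 109 in caNrf2 replicates 2 and 3, and 1159 in caNrf2 replicate 1. The posterior mean estimate gave it 1069, 2242 and 1316 in ctrl and 2245, 1808 and 2029 in caNrf2. The gene total did not depend on this division.

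Members on chromosome 10 numbered 5, and 4 of them were called, Mdm2 and Gadd45b higher and Sesn1 and Apaf1 lower. On chromosome 9, none of the 4 members (Ei24, Atm, Atr and Chek1) was called. Over all genes tested, 21.5% were called, and the share of all genes on each chromosome was not taken. Chromosomes 9 and 10 were picked from those that hold members after the values were seen, and no test of position was made.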
